A study of Mus musculus with 36 samples.

Results

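The cytosolic ribosomal protein genes encode the protein shell of the ribosome outside the mitochondria. They were taken by name from the GENCODE vM21 mouse annotation: protein-coding genes called Rpl or Rps with a number, together with Rpsa, Rplp0, Rplp1 and Rplp2, and without the Rps6k kinases. The rule found 84 genes among the 45706 genes of the count tables, 52 of the large subunit and 32 of the small subunit. It used no measured value. The genes lie on 19 chromosomes, 4 of them on the X chromosome, and 30 (35.7%) hold an annotated snoRNA gene inside them, against 1.19% of the protein-coding genes in the tables.

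Most ribosomal proteins are needed in equal measure with their partners, and the genes are known to be transcribed at high rates in every dividing cell. Many of their messengers start with a C and a run of pyrimidines, the 5′ terminal oligopyrimidine (TOP) tract, through which mTOR and the RNA-binding protein Larp1 control translation. T cells are known to enlarge their ribosome pool when they leave quiescence, with Myc and mTOR as main drivers, and a few ribosomal proteins have a paralog encoded by a gene of its own.

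Total RNA was sequenced from spleen CD4+ T cells of C57BL/6J mice (WT) and of the strain C57BL/6J-Ets1-SE-KO (KO); the labels do not spell out SE. Naive cells were isolated with beads that remove other cells (2 WT and 2 KO libraries). A first set of cultures held Th1 and Th2 cells of both genotypes (3 libraries in each of 4 groups). A second Th1 experiment held cells without virus (2 WT and 2 KO libraries), WT cells with an empty retrovirus, EV (4 libraries), and KO cells with a retrovirus carrying Ets1, Ets1-RV (4 libraries). All Th1 cells grew on plate-bound anti-CD3 with IL-12 at 10 ng/mL, IL-2 at 1 ng/mL and soluble anti-CD28 for 6 days; the labels read here describe no Th2 conditions. Another 8 libraries had a title and a virus label that named different viruses and entered no comparison. Titles carry a B and a T number of unstated meaning: naive and first cultures all have B 1 and differ in T, and libraries of the second experiment were summed by B number, giving 2 samples a group. Nothing says that libraries came from separate mice or cultures, so p-values here reflect only how far the libraries differ, and that variation can be technical. In bulk RNA fewer cells of a type and less RNA per cell cannot be told apart.

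Start regions of 10 members named in the results below are shown. Each is 30 bases around the annotated start, from the RefSeq promoter table on GRCm38.p6, on the gene's own strand. Capitals mark a C followed by at least 4 more pyrimidines that begins within 5 bases of the annotated start, the form of a TOP tract. The first 5 have such a run.
Rps27, chr3:90213634-90213663, minus strand: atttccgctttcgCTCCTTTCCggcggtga
Rplp2, chr7:141447636-141447665, plus strand: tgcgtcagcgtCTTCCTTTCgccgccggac
Rps6, chr4:86857353-86857382, minus strand: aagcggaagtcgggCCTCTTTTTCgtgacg
Rps18, chr17:33955651-33955680, minus strand: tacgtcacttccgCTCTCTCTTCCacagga
Rpl22l1, chr3:28805493-28805522, plus strand: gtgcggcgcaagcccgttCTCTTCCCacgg
Rpsa, chr9:120127751-120127780, plus strand: gtgggttatttaaggacgtcatttccggcc
Rpl37a, chr1:72711245-72711274, plus strand: ttccgctcgccggtctaaaaccgcgcatgc
Rpl22, chr4:152324421-152324450, plus strand: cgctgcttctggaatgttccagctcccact
Rplp0, chr5:115559452-115559481, plus strand: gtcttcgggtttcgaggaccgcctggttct
Rpl7l1, chr17:46782642-46782671, minus strand: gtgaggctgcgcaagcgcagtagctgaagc
The promoter table matched 64 of the 84 members. A run of this form was found in 29 of them (45.3%), against 21.2% of the 27025 genes in the table, and in 13 (20.3%) the annotated first base was itself a C followed by at least 4 pyrimidines, whether or not the run began further upstream, against 3.0%. A start annotated some bases from the one a cell uses hides or creates such a run, so its absence says only that these letters are not in this window. The windows of Rpl22 and Rpl37a lie wholly before the GENCODE starts of these genes, chr4:152325742 and chr1:72711290. Rpl22 has 2 starts in the promoter table, neither with such a run.

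The targeted locus was checked first. Ets1 was at 1810 CPM (the gene's counts scaled to the library's total gene counts) in both naive WT libraries and at 706 and 709 CPM in both naive KO libraries. Its range was 748 to 851 CPM in Th1 WT against 561 to 622 in Th1 KO, and 785 to 847 in Th2 WT against 691 to 728 in Th2 KO. In the second experiment it was 373 to 411 CPM without virus in WT and 214 to 239 in KO, and 384 to 469 in KO with Ets1-RV. Gm27162, a long non-coding RNA gene on chromosome 9, had no count in the 14 KO libraries of the comparisons (3 counts, the limit a count of 0 allows, would be 0.0358 CPM) and had counts in every WT group.

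Library totals on genes ran from 1813288 to 10256407 in the 28 libraries compared, and the second experiment was the shallowest. The defining T cell genes Cd3e, Cd3d, Cd4 and Trac summed to at least 693 CPM in every group, and Ifng was at 195 CPM or more in all Th1 libraries of both genotypes and at or below 2.33 CPM in Th2. The Th2 genes Gata3, Il4, Il5 and Il13 summed to 184 to 380 CPM in Th1 WT and 698 to 771 CPM in Th2 WT. In KO their sums overlapped, at 413 to 862 CPM in Th1 and 751 to 812 CPM in Th2. Summed myeloid markers stayed at or under 22.6 CPM. Mitochondrially encoded genes took 7.40 to 9.78% of gene counts in the first cultures and 9.89 to 16.7% elsewhere. The 10 most abundant genes took 23.2 to 27.9% in the first cultures and 37.6 to 47.8% in the second experiment. In naive cells genotype and sex cannot be told apart: Xist was at 466 and 498 CPM in WT and at 0 in KO, and the Y-linked Uty at 0 in WT and at 45.0 and 50.2 CPM in KO. In the second experiment Uty marked every B 1 sample and Xist every B 2 sample in all 4 groups.

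From here on, CPM of members are scaled with TMM factors within each of the 3 sets of libraries. Levels were compared between members per kilobase of annotated exon, averaged over the 10 groups. Rplp1, a protein of the stalk that recruits translation factors, led with 3540 CPM per kilobase, followed by Rpl8 (1570), Rpl36 (1340), Rpl4 (1310) and the stalk base Rplp0 (1240). At the other end of the 80 members that passed the low-count filter everywhere stood Rpl7l1 (20.9), Rpl22l1 (21.8) and Rps27l (43.4), all paralogs of a more abundant member. This order depends on the length used: 3 of the 5 highest stayed among the first 5 per kilobase of the longest transcript, and 2 per kilobase of the principal transcript, where Rplp2 led with 4340.

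Members at or near 0 were few. Rpl10l and Rpl39l, known as testis paralogs, had no count and 39 counts over the 28 libraries, and Rpl3l, the muscle paralog of Rpl3, had 1. For Rpl10l, 3 counts over these libraries would be 0.0175 CPM. Rpl24, a large-subunit protein needed in every cell, had only 96 counts. Of its exon length, 46.99% lies under the gene Gm28037 and 82.03% of its 38-base words occur elsewhere in the annotated transcripts; their part in the low count was not tested. It passed the filter in the naive fit alone.

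Sequence copies touch most members. Of the members, 60 have a named pseudogene, 262 such pseudogenes are in the tables, and in 58 members over 50% of the 38-base words of the principal transcript occur in another annotated transcript (median 61.3%). Rps27 is the extreme of those named here, with 98.7%. Reads on such words can be left out or counted elsewhere, so levels of single members are uncertain. Counts on the pseudogenes were 1.19 to 1.35 per 100 counts on members in naive cells, 1.21 to 1.31 in the first cultures and 0.484 to 0.576 in the second experiment. Reads of several origins were 15.03 to 17.58% of read pairs in the first cultures and 8.98 to 10.2% in the second. The labels name 2 read lengths, 38 and 61 bases, without saying which library had which, so levels are not compared by a test between the experiments.

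As a share of all gene counts, the 84 members took 4.22 and 4.28% in the WT naive libraries and 4.36 and 4.21% in the KO naive libraries. In the first cultures they took 5.28, 5.47 and 5.58% in Th1 WT, 5.90, 6.02 and 5.31% in Th1 KO, 5.93, 5.79 and 6.11% in Th2 WT and 5.76, 5.46 and 5.33% in Th2 KO. Every cultured library was above every naive library. Among WT cells the Th1 and Th2 values did not overlap (5.44% ± 0.156 against 5.94% ± 0.159, SD, n = 3 each), and neither did the Th2 values of the genotypes (KO 5.51% ± 0.224, SD, n = 3). The Th1 values of the genotypes did overlap, with Th1 KO at 5.75% ± 0.383 (SD, n = 3).

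In the second experiment the members took 5.45% (B 1) and 5.26% (B 2) in WT without virus, 6.23 and 6.22% in KO without virus, 5.08 and 5.35% in WT with EV, and 5.99 and 5.79% in KO with Ets1-RV. Both KO groups lay above both WT groups, within B 1 and within B 2. No test was made on these shares, since they sum genes chosen with earlier results known.

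**Figure D1:**
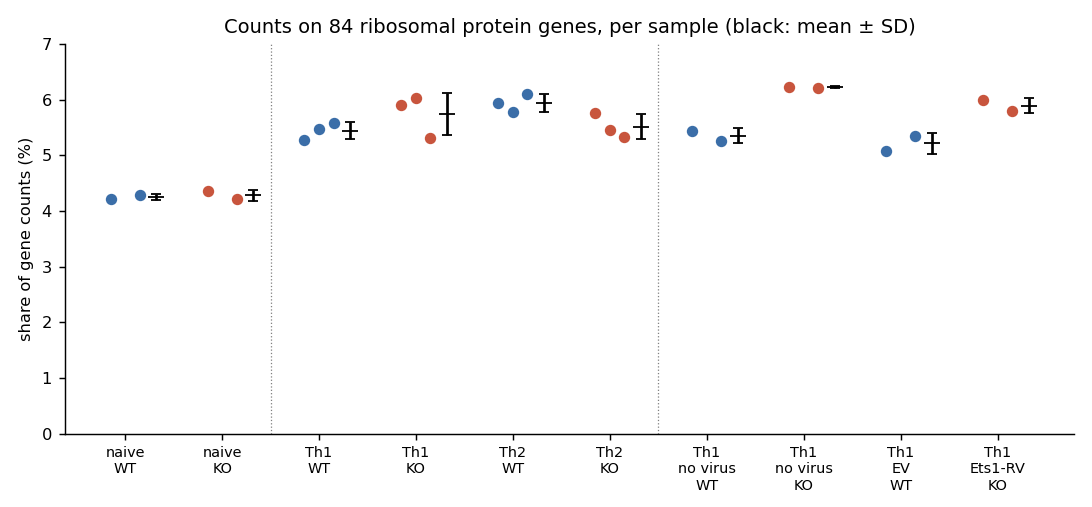
Share of all gene counts (%) on the 84 ribosomal protein genes, 1 point per sample (library, or libraries of 1 B number summed in the second experiment), WT in blue and KO in red, with the group mean ± SD in black; dotted lines part the naive cells, the first cultures and the second experiment. Naive samples lie between 4.21 and 4.36%, and the KO samples of the second experiment, at 5.79 to 6.23%, above its WT samples at 5.08 to 5.45%.

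Libraries differing in T are samples in the naive and first-culture fits and were summed in the second experiment. With that limit, Th1 against Th2 cells of WT mice had the most members called of the 10 comparisons. There 40 of 80 members tested were lower in Th1 and 1 was higher, where 15.8% of all 12616 genes were lower and 13.7% higher (edgeR's quasi-likelihood test, Benjamini-Hochberg adjusted p under 0.05). The median log2 fold change of Th1 over Th2 was -0.18 over the members and -0.01 over all genes. In 56 members, 70% of those tested, all 3 Th1 libraries were below all 3 Th2 libraries, against 21.4% of all genes. Both subunits took part: 22 of 48 members of the large and 18 of 32 of the small subunit were lower. The other 39 members did not pass.

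In the P stalk, which binds elongation factors, Rplp1 was at 1740, 1760 and 1710 CPM in Th1 WT and at 2250, 2200 and 2510 CPM in Th2 WT. The groups did not overlap, and the log2 fold change was -0.42 (SE 0.061, edgeR adjusted p = 3.65e-05). Rplp2 stood at 1700, 1850 and 1690 CPM against 2080, 2130 and 2130 CPM, also without overlap, with a log2 fold change of -0.27 (adjusted p = 0.00283 in edgeR). Rplp0, the base of the stalk, had 1950, 1930 and 2070 CPM against 2130, 2080 and 2330 CPM and did not pass.

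Among small-subunit members, Rps27 had the largest difference, with 169, 201 and 180 CPM in Th1 WT and 239, 250 and 265 CPM in Th2 WT (log2 fold change -0.46, SE 0.079, edgeR adjusted p = 0.000211). Rps14, a small-subunit protein whose human counterpart lies in the deletion of 5q- syndrome, was at 438, 452 and 517 CPM against 579, 662 and 605 CPM (-0.39, SE 0.101, edgeR adjusted p = 0.00601). Both were lower in every Th1 library than in any Th2 library. Rpsa, also known as laminin receptor, was at 2060, 2170 and 2140 CPM against 2620, 2480 and 2730 CPM, a log2 fold change of -0.30 (SE 0.061). Rps6, the substrate of the S6 kinases downstream of mTORC1, was at 507, 537 and 530 CPM against 594, 576 and 676 CPM (log2 fold change -0.23, edgeR adjusted p = 0.0108). These groups did not overlap either, but the Rps6 call is lost with total counts as scaling (edgeR adjusted p = 0.0665), without Th1 T 1 (0.0545) and without Th2 T 3 (0.0748). The X-linked Rps4x was lower by -0.31 (log2, SE 0.059).

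In the large subunit, Rpl37a was at 155, 177 and 155 CPM in Th1 WT and at 210, 226 and 233 CPM in Th2 WT, a log2 fold change of -0.46 (SE 0.086, edgeR adjusted p = 0.000501). Rpl36 stood at 477, 513 and 538 CPM against 634, 656 and 693 CPM (-0.38, SE 0.074), and Rpl19 at 279, 322 and 306 CPM against 376, 401 and 386 CPM (-0.36, SE 0.075). All of these were lower in each Th1 library than in each Th2 library. Rpl5, which with Rpl11 and 5S rRNA holds back the p53 ligase Mdm2, had a log2 fold change of -0.22 (edgeR adjusted p = 0.0268), a call lost with total counts as scaling (0.125), without Th1 T 1 (0.14) and without Th2 T 3 (0.134). Rpl11 itself was at 218, 234 and 240 CPM against 236, 277 and 285 CPM, groups that overlap, and did not pass. Rpl22, needed for the development of alpha-beta T cells, was at 1080, 1110 and 1100 CPM against 1320, 1220 and 1420 CPM (-0.27, SE 0.062). Its call and those of Rpl37a, Rpl36 and Rpl19 held under each scaling and filter tried and without each library in turn.

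The paralog Rpl7l1 went the other way, at 88.0, 90.7 and 80.7 CPM in Th1 WT and 68.3, 76.9 and 71.7 CPM in Th2 WT (log2 fold change 0.26, SE 0.076, edgeR adjusted p = 0.0144). It was the only member higher in Th1 in this test, and its groups did not overlap. Its partner Rpl7 was lower by -0.16 (edgeR adjusted p = 0.0386), a call lost under total-count scaling (edgeR adjusted p = 0.263) and without any of 5 of the 6 libraries. The call of Rpl7l1 is lost without the Th1 library T 2 (edgeR adjusted p = 0.0582) or the Th2 library T 1 (edgeR adjusted p = 0.0647).

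With total counts as scaling the median of all genes shifts to 0.06 and that of the members to -0.11. Then 25 members are lower and 3 higher, where 1602 of all 12616 genes are lower and 2400 higher. The distance of the members from all genes is -0.17 under both scalings. Without the Th1 library T 1 the members lower fall to 26. The gamma-delta T cell genes Trdc, Tcrg-C1, Tcrg-C2 and Tcrg-C4 summed to 19.1 to 32.5 CPM in Th1 WT and 6.38 to 12 CPM in Th2 WT. Of the 8 handling-stress genes 5 were lower and 1 higher in Th1 WT (median -0.38), with sums of 777 to 778 CPM against 770 to 858 CPM. The part of either list in the result was not tested.

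**Figure D2:**
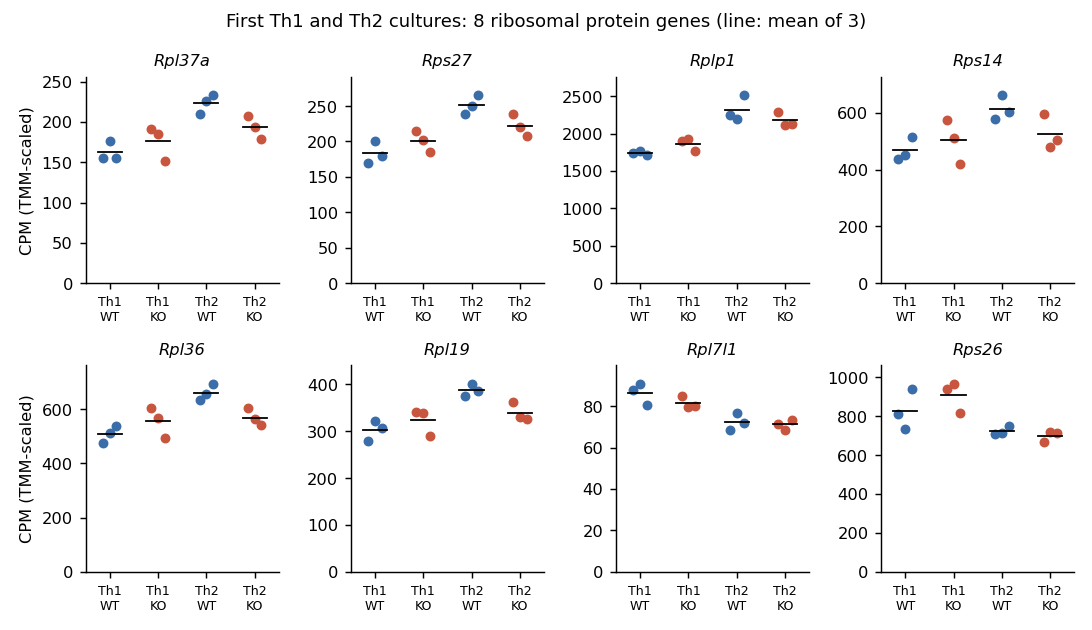
CPM after TMM scaling of 8 members in the first Th1 and Th2 cultures, 1 point per library, WT in blue and KO in red, the line at the mean of 3 libraries; each axis starts at 0. The first 6 genes have WT Th1 below WT Th2 in every library, while WT Rpl7l1 and KO Rps26 sit higher in every Th1 library than in any Th2 library of the same genotype.

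Among KO cells the same contrast gave 4 members higher and 1 lower in Th1 of 80 tested, where 8.01% and 9.51% of all genes were higher and lower. The median log2 fold change of the members was 0.03, against 0.00 over all genes, with 52 members above 0 (49.6% of all genes) and 10 at an unadjusted p under 0.05 (29.8% of all genes). Rplp1 was the member lower, at 1900, 1930 and 1770 CPM in Th1 KO and 2290, 2110 and 2130 CPM in Th2 KO (log2 fold change -0.22, edgeR adjusted p = 0.0159). The members higher were all but Rpl21 of the small subunit. Rps26, which lies by the path of the messenger out of the ribosome, was at 939, 966 and 817 CPM against 668, 717 and 715 CPM (0.37, SE 0.079, edgeR adjusted p = 0.00248). Rps25 had 239, 268 and 242 CPM against 214, 201 and 195 CPM (0.30), and Rpl21 had a log2 fold change of 0.19. In each of these named members the Th1 and Th2 libraries did not overlap. Of them, Rps26 alone kept its call without each library and in every other setting tried. The calls numbered 2 without Th1 T 2, Th2 T 2 or Th2 T 3 and 8 without Th1 T 3, and the median ran from 0.01 to 0.09. Of the 4 Th2 genes Gata3, Il4, Il5 and Il13, 1 was lower in Th1 KO than in Th2 KO (9.51% of all genes). In WT all 4 were lower in Th1 (15.8% of all genes). Their part in the result was not tested.

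Comparing genotypes within a fate, no member passed in either. In Th1 cells 69 of 80 had a log2 fold change of KO over WT above 0 (50.6% of all genes did) and 6 had an unadjusted p under 0.05 (16.1% of all genes), while edgeR called 3.66% of all genes, 2.16% higher and 1.51% lower. In 8 members all KO libraries were above all WT libraries (10.4% of all genes) and in 0 below (9.46%). The median was 0.08. The highest value was 0.21. This member, Rpl17, was at 556, 582 and 641 CPM in WT and 736, 711 and 608 CPM in KO, groups that overlap (edgeR adjusted p = 0.125). The KO library T 3 sat below the other KO libraries in Rpl17, Rpl36, Rps14 and Rplp1; without it 1 member was higher and the median was 0.12. The median was 0.04 without KO T 1 and 0.05 without KO T 2 or WT T 1. The gamma-delta T cell genes Trdc, Tcrg-C1, Tcrg-C2 and Tcrg-C4 summed to 19.1 to 32.5 CPM in Th1 WT and 4.11 to 9.58 CPM in Th1 KO, and all 4 were lower in KO; their part in the result was not tested.

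In Th2 cells 1 of 80 members had a log2 fold change above 0 (49.4% of all genes), 51 had an unadjusted p under 0.05 (9.36% of all genes) and none an adjusted p under 0.05 (0.325% of all genes; DESeq2 also called no member). The median was -0.15, against 0.00 over all genes. In 40 members all 3 KO libraries were below all 3 WT libraries, against 7.44% of all genes, and in 0 the reverse (6.8%). Rpl13a had a log2 fold change of -0.22 (edgeR adjusted p = 0.200) and Rps6 of -0.19, with 553, 538 and 524 CPM in KO and 594, 576 and 676 CPM in WT. Rpl11 was at 247, 219 and 210 CPM in KO against 236, 277 and 285 CPM in WT (-0.24, edgeR adjusted p = 0.342), and here the groups overlap. Rps27l was the exception, with a log2 fold change of 0.09 and groups that overlap.

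Whether the genotype difference depends on fate was tested with the interaction term, KO over WT in Th1 minus the same in Th2. No member passed and no gene passed in edgeR, while 52 members had an unadjusted p under 0.05 (9.71% of all genes) and 78 of 80 were above 0 (51.6% of all genes). The median was 0.22, against 0.01 over all genes, and it stayed at 0.19 or more under each scaling. Rpl17 had the largest term, 0.42 (SE 0.101, edgeR adjusted p = 0.211). DESeq2 called 1 member.

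**Figure D3:**
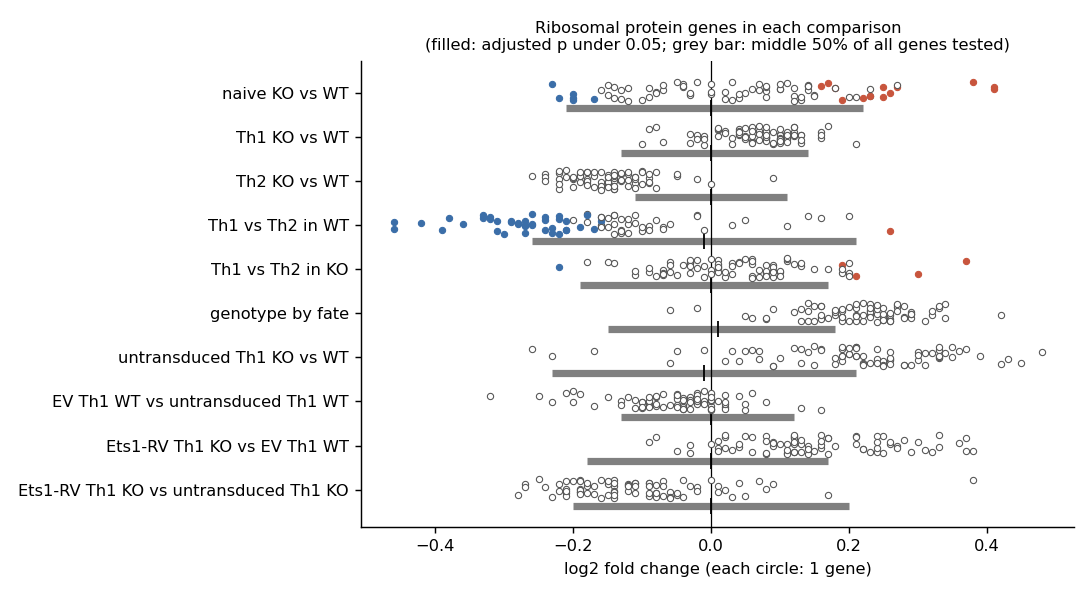
Log2 fold change of each ribosomal protein gene tested (circles, 80 or 81 a row) in the 10 comparisons, filled red (higher) or blue (lower) where edgeR's adjusted p was under 0.05; the grey bar spans the middle 50% of all genes tested and the tick its median. The WT row of Th1 against Th2 holds 40 blue circles, and the naive row has filled circles on both sides.

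In naive cells more members were higher in KO than lower. Of 81 tested, 13 were higher and 6 lower in KO, where 8.75% and 8.92% of all 11246 genes were higher and lower. The members higher were 16% of those tested, above the share of all genes, and the members lower 7.41%, below it. The median log2 fold change was 0.06, against 0.00 over all genes, and 48 members were above 0 (50.3% of all genes). In 31 members both KO libraries were above both WT libraries (27.5% of all genes) and in 21, or 25.9%, below (26.9%). The shares of gene counts overlapped, as given above.

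Those lower in KO included abundant members. Rplp0 was at 1630 and 1690 CPM in WT and at 1480 and 1350 CPM in KO (log2 fold change -0.23, SE 0.053, edgeR adjusted p = 0.000399). Rpsa was at 1900 and 1920 CPM against 1810 and 1580 CPM (-0.17, edgeR adjusted p = 0.0137). Rps2, by the entry of the messenger channel, was at 480 and 457 CPM against 426 and 378 CPM (-0.22). Rps12 had 202 and 208 CPM against 178 and 177 CPM, and Rpl13 had 287 and 304 CPM against 258 and 255 CPM, both with a log2 fold change of -0.20. In each of these named members both KO libraries were below both WT libraries, as in 26.9% of all genes. Most of these calls were fragile. That of Rps12 was lost with DESeq2, total-count scaling, no low-count filter, counts without strand, the replicate block and each library left out, and that of Rpl13 with DESeq2, no filter and each library left out. That of Rpsa was lost with DESeq2 (adjusted p = 0.111), total-count scaling (edgeR adjusted p = 0.0539), the replicate block (0.0735) and without 3 of the 4 libraries, with a log2 fold change of -0.07 without KO T 2. Rps2 lost its call with DESeq2 and without 3 of the libraries, and Rplp0 without WT T 2 or KO T 2.

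Those higher in KO were led by Rpl41, whose protein is one of the shortest known, at 239 and 233 CPM in WT and 289 and 338 CPM in KO (log2 fold change 0.41, SE 0.067, edgeR adjusted p = 5.79e-08). Rps18 was at 191 and 190 CPM against 251 and 253 CPM, also 0.41 (SE 0.071, edgeR adjusted p = 4.95e-07). Rps29 had 46.4 and 41.3 CPM against 44.9 and 68.8 CPM, groups that overlap. Its log2 fold change of 0.38 fell to 0.04 without KO T 2, where the call was lost. It was also lost with DESeq2, no low-count filter, and without WT T 2 or KO T 1. Rpl17 (0.27), Rpl21 (0.26), Rpl5 (0.25) and Rpl35a (0.25) did not overlap. Rps14 was at 371 and 390 CPM against 460 and 430 CPM (0.23, SE 0.062) and Rps27 at 269 and 251 CPM against 297 and 308 CPM (0.22, SE 0.066). Many of these calls were fragile too. That of Rps27 was lost with DESeq2, counts without strand and each library left out. That of Rpl35a was lost with DESeq2 and each library left out, and that of Rps14 with each library left out. Rpl5 lost its call without WT T 1, WT T 2 or KO T 2. Rpl17 and Rpl21 lost theirs without WT T 1 or KO T 2, and Rpl41 without KO T 2. Rplp1, Rplp2, Rps6, Rpl11, Rpl22 and Rpl22l1 did not pass.

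Across the 81 members, the log2 fold change in naive cells had a Spearman rho of -0.41 with the member's mean CPM and of -0.26 with its GC content; members share libraries and depth, so these describe these 4 libraries only. The 8 handling-stress genes, among them Fos, Jun and Hspa1a, summed to 3750 and 3800 CPM in WT and 6010 to 6700 CPM in KO, with 7 of 8 higher in the same test. Mitochondrially encoded genes took 13 and 12.6% in WT and 14.3 and 16.7% in KO, the CD8 genes summed to 17.3 to 17.4 CPM in WT and 35 to 35.5 CPM in KO, and the 5 erythroid and platelet genes to 20.7 CPM in WT and 5.54 to 8.09 CPM in KO. Their part in the result was not tested. DESeq2 called 6 members higher and 2 lower. Over all genes it called 451 higher and 414 lower, where edgeR called 984 and 1003. With 1 library left out the fit has a lone sample in that group, assumed to vary like the other: the calls fell to 4 without the WT library T 1, 4 without WT T 2, 11 without KO T 1 and 1 without KO T 2, and the median to 0.02 in the last case.

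**Figure D4:**
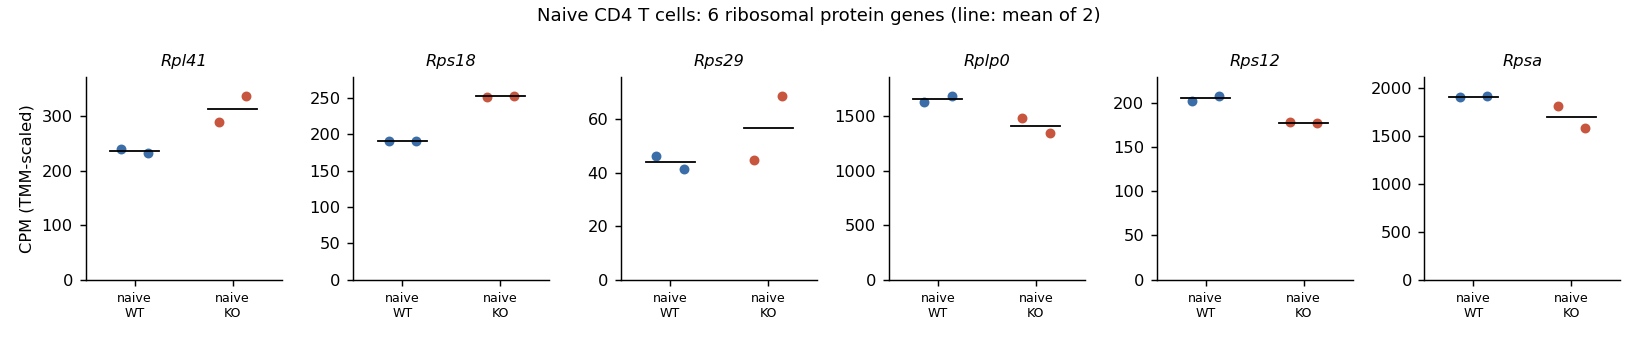
CPM after TMM scaling of 6 members in naive CD4 T cells, 1 point per library (WT blue, KO red), the line at the mean of 2; each axis starts at 0. Rpl41 and Rps18 are higher in both KO libraries, Rps29 in 1 of them, and Rplp0, Rps12 and Rpsa lower in both.

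In the second Th1 experiment no member passed in any of the 4 comparisons. Without virus, KO against WT, 74 of 80 members had a log2 fold change above 0 (49.1% of all genes), with a median of 0.22 against -0.01 over all genes. The median was 0.12 without WT B 1 and 0.31 without WT B 2, fits that leave the B numbers unbalanced between the groups. An unadjusted p under 0.05 was reached by 14 (14.1% of all genes), while edgeR called 1.24% of all genes (0.605% higher, 0.632% lower) and DESeq2 called no member. In 51 members both KO samples were above both WT samples (20.9% of all genes). Rpl22 was at 678 and 830 CPM in WT and 979 and 1130 CPM in KO (log2 fold change 0.48, SE 0.167, edgeR adjusted p = 0.187). Rplp2 was at 1400 and 1620 CPM against 2020 and 2100 CPM (0.45, edgeR adjusted p = 0.184), and Rplp1 at 1250 and 1610 CPM against 1950 and 1920 CPM (0.43). These groups did not overlap, and Rpl22, Rplp1 and Rplp2 passed in the fit without a low-count filter (edgeR adjusted p = 0.0298, 0.0488 and 0.0302). In this comparison the fold change had a Spearman rho of 0.55 with the members' mean CPM over 80 members, from samples that differ in depth (1813288 to 6844944 counts).

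With the empty virus, WT cells had a median of -0.04 against WT cells without virus, with 19 of 80 members above 0 (49.0% of all genes). The sign of the median turns with 1 sample: it was 0.15 without EV B 1, -0.26 without EV B 2, -0.12 without WT B 1 and 0.05 without WT B 2. Each of these fits sets 1 B number against both, so the medians mix in the difference between B numbers. Within B 1 the mean log2 CPM of the members was 8.675 with EV and 8.836 without virus. Within B 2 it was 9.061 and 9.019. No gene was called by edgeR here, no member reached an unadjusted p under 0.05 (2.42% of all genes did), and DESeq2 called no member. For Rplp1 the log2 fold change was 0.02, with a 95% interval from -0.29 to 0.32.

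KO cells with Ets1-RV against WT cells with EV differ in genotype and in what the virus carries. There 75 of 80 members were above 0 (49.7% of all genes), the median was 0.13, and 4 had an unadjusted p under 0.05 (9.61% of all genes), where edgeR called 0.560% of all genes and DESeq2 no member. Rpl17 was at 539 and 726 CPM in WT with EV and 844 and 783 CPM in KO with Ets1-RV (0.36, edgeR adjusted p = 0.428). The median depends on the EV samples, with B numbers then unbalanced between the groups: it is -0.03 without EV B 1 and 0.35 without EV B 2. Their TMM factors were 1.113 and 0.9138, and the mean log2 CPM of the members was 8.675 and 9.061 in EV against 9.055 and 9 in Ets1-RV, which overlap; with total counts as scaling it was 8.83 and 8.93 against 9.06 and 9.02, which do not.

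KO cells with Ets1-RV against KO cells without virus had a median of -0.12, with 12 of 80 members above 0 (49.7% of all genes) and none at an unadjusted p under 0.05 (10.5% of all genes), where edgeR called 0.190% of all genes and DESeq2 no member. In 42 members both virus samples were below both samples without virus (19.7% of all genes). Rps27 was at 251 and 270 CPM with the virus and 326 and 303 CPM without (-0.27, edgeR adjusted p = 0.569). Rps27l stood apart from the other members at 32.9 and 36.9 CPM against 25.1 and 29.3 CPM (0.38, edgeR adjusted p = 0.563). The comparisons of the second experiment share groups, so they are not independent of each other, and virus and insert cannot be told apart in this last contrast.

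Rps27l, a paralog of Rps27 known as a p53 target, varied most between groups. It was at 4.81 and 5.83 CPM in naive WT and 6.20 and 6.30 CPM in naive KO, on 62 and 68 counts. In the first cultures it was at 57.6, 58.0 and 44.9 CPM in Th1 WT, 57.1, 56.0 and 55.7 CPM in Th1 KO, 47.7, 56.0 and 44.9 CPM in Th2 WT and 52.0, 54.1 and 52.5 CPM in Th2 KO. Th1 KO lay above Th2 KO in every library, the other contrasts of these groups by genotype or fate overlapped, and none passed. In the second experiment it ranged from 25.1 to 43.1 CPM. Rps27 itself, by contrast, was at 251 to 308 CPM in naive cells, 169 to 265 CPM in the first cultures and 193 to 326 CPM in the second experiment. Next in variation were Rps12 (group means from 178 CPM in naive KO to 924 CPM in Th1 KO without virus), Rpl29 and Rpl39, and Rpl24 on its few counts. Cell state, library set and normalization differ together here, and cannot be told apart.

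The other paralog pairs moved less. Rpl22l1, whose level is known to rise when Rpl22 is lost, was between 32.7 and 64.7 CPM in every sample and passed in no comparison, while Rpl22 was between 610 and 1420 CPM. Rpl36al was at 54.1 to 76.2 CPM in naive cells and 81.7 to 110 CPM in the first cultures and passed in none, nor did Rpl36a, Rpl39 or Rpl3. Rpl10 passed only in naive cells (0.19, edgeR adjusted p = 0.0379), a call lost with DESeq2 (0.29), no filter (0.0947), the replicate block (0.0796) and each library left out.

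**Figure D5:**
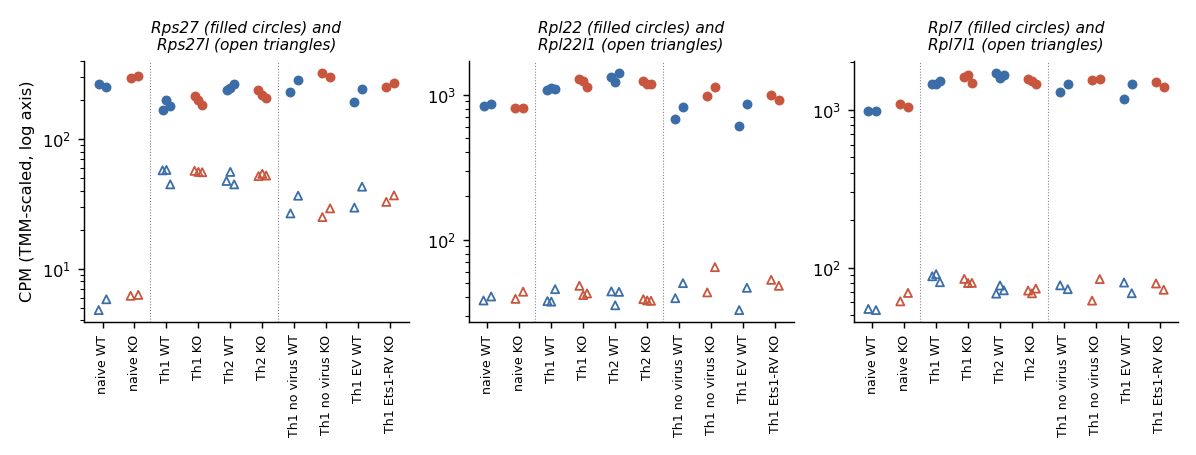
CPM after TMM scaling (log axis) of 3 paralog pairs in every sample of the 10 groups, WT in blue and KO in red; filled circles are Rps27, Rpl22 and Rpl7, open triangles Rps27l, Rpl22l1 and Rpl7l1. Rps27l lies between 4.81 and 6.30 CPM in naive samples and between 25.1 and 58.0 CPM in cultured samples.

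Other parts of the ribosome pathway, taken as lists, were set beside the members. Of the ribosomal proteins outside the name rule, Fau (made as a fusion with a ubiquitin-like protein) and Rack1 were lower in WT Th1 than in WT Th2 by -0.48 (edgeR adjusted p = 1.96e-05) and -0.34, and Fau was higher in naive KO (0.20). The 32 ribosome assembly factors, which build and export the subunits, went the other way between the fates. Of them 26 were higher and 0 lower in WT Th1 (13.7% and 15.8% of all genes), with a median of 0.45. Nop56 (0.99, edgeR adjusted p = 2.75e-06), Nolc1 (0.97) and Nop2 (0.87) had the largest rises. In KO 17 were higher and 0 lower (8.01% and 9.51% of all genes), led by Wdr12 (0.71), Utp4 (0.60) and Rrs1 (0.56). The naive KO cells had 7 assembly factors lower and 0 higher (8.92% and 8.75% of all genes), with Rrp12 at -0.50, Nat10 at -0.49 and Bysl at -0.41. In Th1 KO against WT Nop2 alone was lower (-0.40), as were 1.51% of all genes.

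RNA polymerase I, which transcribes ribosomal RNA, had 5 of 15 subunits and factors higher and 0 lower in WT Th1 over Th2 (13.7% and 15.8% of all genes), with Polr1b at 0.90, Polr1a at 0.54 and Twistnb at 0.49. In KO 2 were higher (8.01% of all genes). Of 20 regulators of Myc and mTOR, 6 were higher and 1 lower in WT Th1 (13.7% and 15.8% of all genes). Mycn rose by 1.74, Myc by 0.81 (edgeR adjusted p = 1.36e-06) and Max by 0.47, and Mxd4 was lower (-0.81). In KO 5 were higher and 2 lower (8.01% and 9.51% of all genes), with Myc at 0.37. Myc was lower in KO than WT in Th1 cells (-0.33, edgeR adjusted p = 0.0408), as was Mycn (-0.75). It was also lower in naive KO cells (-0.53, edgeR adjusted p = 3.38e-06), as was Larp1 (-0.51, edgeR adjusted p = 7.21e-12). There 4 of 19 regulators tested were lower and 2 higher (8.92% and 8.75% of all genes).

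A list of 20 other genes with TOP messengers, translation factors among them, had 5 higher and 3 lower in WT Th1 (13.7% and 15.8% of all genes). Tpt1 was at -0.33, Eif3f at -0.28, Nap1l1 and Eif2s3x at 0.27 and Eif3a at 0.25. In KO cells 3 were higher and 0 lower in Th1 (8.01% and 9.51% of all genes). In naive KO Eef2 was lower (-0.29, edgeR adjusted p = 6.67e-07) and Tpt1 higher (0.19). Of the mitochondrial ribosomal proteins, 77 tested, 13 were higher and 2 lower in WT Th1 (13.7% and 15.8% of all genes), with Mrpl19 at 0.60 and Mrpl45 at -0.55. In KO 7 were higher and 1 lower (8.01% and 9.51% of all genes), and in naive KO 4 and 1 (8.75% and 8.92% of all genes). Of 9 snoRNA host genes in the tables, Snhg5 alone was higher in WT Th1 (0.70) and in naive KO (0.61). In KO cells 3 were higher in Th1 (8.01% of all genes), Snhg5 (0.78) and Zfas1 (0.31) among them. In Th2 KO against WT and in the interaction none of these 7 lists had a gene past the threshold, and in the second experiment Zfas1 alone passed, lower in KO with Ets1-RV than in KO without virus (-0.86, edgeR adjusted p = 0.0437).

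Split by a run at the annotated start, the members had similar shares of calls. An annotated start can hide or create a run, so this split cannot tell whether a TOP tract matters. In WT Th1 against Th2, 15 of 29 tested members with a run were lower and 14 of 31 without one (15.8% of all genes). Of those shown, Rps27, Rplp2, Rps6 and Rps18 with their capitals and Rpl37a, Rpsa and Rpl22 without any were among them. Rpl22l1, with a run, and Rplp0, without one, did not pass, and Rpl7l1 was higher. Over the 80 members the log2 fold change of that contrast had a Spearman rho of -0.18 with GC content, 0.10 with transcript length and -0.10 with the share of 38-base words found elsewhere.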

How the data were processed

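The deposited tables hold read counts per gene, written by the authors with STAR 2.5.0a on GRCm38, per the submitters' processing notes; no source read here names their annotation release. Libraries were made with a stranded total RNA kit for small inputs. Column 4, the strand with 93.3 to 95.2% of stranded gene counts, was used, and 4 summary lines a table (63.6 to 76.0% of read pairs) were left out. Of the gene identifiers, 45143 matched GENCODE vM21 and 563 did not.

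Counts were tested with edgeR 4.0.16 (R 4.3.3; quasi-likelihood, TMM, filterByExpr, Benjamini-Hochberg over all genes tested, threshold 0.05) in 3 fits: naive, first cultures, and the second experiment with libraries summed by B number. The tests were tried on simulated counts. Members, lists and tests were chosen with earlier results of these data known. Named genes were, in each comparison, up to 6 members with the largest rise and fall past the threshold, paralog pairs, Rpsa, Rplp0, Rplp1, Rplp2, Rps6, Rps14, Rpl11 and Rpl5, the extremes of level and variation, and up to 3 genes a direction of the other lists; Rpl13a, Rpl17 in comparisons without calls and the genes named for their tract were chosen after their values were seen. Alternatives were DESeq2 1.42.0, other scalings, filters and strands, a replicate block, and leaving out each sample. Intervals for counts of 0 cover counting error only. No libraries were alike within sampling noise. A chi-square per degree of freedom over genes compared libraries of a group. It was 1.94 in naive WT, 4.69 in naive KO and 2.37 to 7.84 in the first cultures. In the second experiment it was 1.26 to 1.99 within a B number and 3.44 to 18.2 between B numbers. The naive WT libraries thus differed as little as libraries that were summed in the second experiment. Naive p-values may rest on technical spread. A few named genes and a marker list that fall under these rules are not reported here.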

Additional observations from a re-analysis of the deposited data

How the results depend on the processing

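No called member value changed sign under any setting tried; of 35 named member values past the threshold, 23 lost the call in at least 1 setting, and 9 of 182 not past it gained one. In naive cells 19 members called became 8 (6 higher, 2 lower) with DESeq2 and 1 to 11 with a library left out. In WT Th1 against Th2, 41 became 27 to 42 with a library left out and 28 with total-count scaling; in KO, 5 became 2 to 8. From 0 calls, Th1 KO against WT had 0 to 1 with a library left out, Th2 KO against WT had 2 without a low-count filter, the interaction had 1 with DESeq2 and 1 without a filter, KO against WT without virus had 3 without a filter, and Ets1-RV KO against EV WT had 1 with each library as its own replicate. The cause was not tested.

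The difference in share (percentage points) in naive cells was 0.0336, and 0.194 without mitochondrially encoded genes; without the 10 most abundant other genes it turned to -0.0652. Under that last setting it went from 0.231 to 0.137 in KO Th1 against Th2, from -0.427 to -0.699 in Th2 KO against WT, from -0.498 to -0.917 in WT Th1 against Th2, from 0.870 to 1.60 in KO against WT without virus, from 0.681 to 0.917 in Ets1-RV KO against EV WT and from -0.331 to -0.807 in Ets1-RV KO against KO without virus. Mean log2 CPM under total-count scaling went from -0.18 to -0.11 in WT Th1 against Th2 and from -0.11 to -0.06 in the last contrast.

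In the first cultures replicate numbers were not shown to pair samples: same-numbered libraries correlated at -0.07 to 0.20. In the second experiment samples of the same B number correlated at 0.05 to 0.30, and B 1 and B 2 differ in Uty and Xist. With 2 samples a group, values between different B numbers are the same with the sign reversed, so they add nothing. With the replicate block, 13 members were called in naive cells (9 higher, 4 lower), 41 in WT Th1 against Th2, 4 in KO, and 0 elsewhere.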

Other observations

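The 8 libraries whose title and virus label differ were kept out of all comparisons. In the 4 titled as KO with the empty virus and labelled with the Ets1 virus, the ribosomal protein genes took 4.93, 4.96, 4.82 and 4.96% of gene counts, Gm27162 had 5, 9, 17 and 13 counts, and Ets1 was at 594, 565, 582 and 632 CPM. In the 4 titled as WT with the Ets1 virus and labelled with the empty virus, the shares were 6.29, 6.16, 6.19 and 6.06%, Gm27162 had 0 counts in each, and Ets1 was at 191, 189, 269 and 252 CPM. Rplp1 was at 1500, 1450, 1300 and 1370 CPM in the former and at 1840, 1830, 1840 and 1870 CPM in the latter. In the libraries compared, Gm27162 had no count in KO and had counts in every WT group, the reverse of these titles. The genotype in these titles is therefore as uncertain as the virus, and the shares here are not read by genotype.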
